A study of Bos taurus with 3 samples.

Results

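Integrins are cell surface receptors made of 1 alpha and 1 beta subunit, and they link the extracellular matrix outside the cell to the actin cytoskeleton inside it. In most integrins the beta subunit recruits talin and kindlin at its cytoplasmic tail, and the combination of alpha and beta subunits sets which matrix protein is bound. ITGB1 pairs with many alpha subunits, among them ITGA2 (a collagen receptor), ITGA3 (a laminin receptor) and ITGA5 (the classical fibronectin receptor). ITGAV pairs with ITGB3, ITGB5 and ITGB6 to bind vitronectin and other proteins with an RGD motif, and ITGA6 with ITGB4 anchors epithelia to laminin at hemidesmosomes.

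Expression of 10 listed integrin subunits was examined in cells cultured from bovine ovaries. They were found by the gene symbol of the array's annotation. A probe set with that single symbol was present for 9 of the 10, which were 4 alpha and 5 beta subunits, read by 17 of the 24016 probe sets tested. ITGA6 had no probe set under its symbol and was not analysed here. Where a gene had several probe sets it was represented by the one of highest mean over the 3 arrays, as were all 9155 named genes of the series.

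RNA came from 2 cultures of gonadal ridge epithelial-like (GREL) cells and from 1 culture of adult fibroblasts. The GREL cells were polygonal cells grown from collagenase-digested fetal ovaries, labelled as 130 days of gestation for both isolates and described by the study as clonally enriched. The ages of the isolates differ slightly in the paper's text, so the labelled age is approximate. The fibroblasts came from the medullar stroma of an ovary of an adult animal over 1 year old. All cultures were grown in DMEM/F12 with fetal calf serum, and no treatment is named. Stage (fetal or adult) and cell type changed together between the groups and cannot be told apart. Donor animal, tissue taken and, per the paper's methods, collagenase strength differed between the groups too. Clonal enrichment is described for the GREL isolates only.

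Each culture was hybridised to 1 Affymetrix bovine array, and values are log2 intensities deposited in steps of 0.1. The array medians were 3.0 and 2.9 in GREL isolates 1 and 2 and 2.9 in the fibroblasts. Detection calls were not used here, so a background level was taken from 48 genes of other organs. Their 90th percentile was 6.47 and 6.24 in the isolates and 6.06 in the fibroblasts, and their 95th percentile was 7.99, 7.98 and 8.29 in the same order. Probe sets of ALB, APOA1, POMC and PRL were above 7 on every array and raised both levels. Without these genes both levels would be lower, and some readings given here as below background could lie above it. Such levels were not computed. Lying below the levels used here does not show that a gene was unexpressed. Of 6 epithelial markers, 2 (KRT19 and KRT7) exceeded the fibroblasts more than 3-fold in both isolates, KRT7 with all its values below both background levels. KRT18 was at 11.4 and 11.8 in the isolates, against 10.4 in the fibroblasts, above both levels on every array. KRT8 was at 2.9 and 3.2 in the isolates, against 2.1 in the fibroblasts, below both levels. CDH1, the cadherin of epithelial adherens junctions, was at 4.7 and 3.2 in the isolates, against 3.6 in the fibroblasts, below both levels. EPCAM, a defining marker of many epithelia, was at 3.9 and 1.5 in the isolates, against 1.0 in the fibroblasts, all below both levels. Of 10 fibroblast markers, 2 (PDGFRA and TCF21) were over 3-fold lower in the isolates, and the sum of their 10 log2 values was 76.9 and 69.7 in the isolates and 87.8 in the fibroblasts. Of 6 granulosa markers, 0 were over 3-fold apart in either direction. By any amount 4 were higher in both isolates and 0 lower, where 41.6% and 33.5% of all named genes were. FOXL2, a transcription factor of granulosa cells and their precursors, was at 1.9 and 2.0 in the isolates, against 1.8 in the fibroblasts, also below both levels. INHBA was at 7.3 and 6.5 in the isolates, against 6.4 in the fibroblasts, above the 90th percentile on every array. Of 6 smooth muscle markers, 0 were over 3-fold higher in both isolates and 1 (MYLK) was over 3-fold lower. MYLK was at 8.0 and 7.0 in the isolates, against 10.6 in the fibroblasts, and DES at 8.3 and 8.1, against 9.5. Smooth muscle actin (ACTA2) was at 10.4 and 10.7 in the isolates, against 10.5 in the fibroblasts. The collagens COL1A2 and COL3A1 were at 10.2 or more on all 3 arrays. None of the 7 markers of endothelium or of the 9 measured markers of blood cells, which carry integrins of their own, exceeded the 90th percentile on any array, and the highest value among them was 3.0.

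In 5 of the 9 integrin subunits (ITGA3, ITGB1, ITGB4, ITGB5 and ITGB6) the mean of the GREL isolates lay within 0.30 of the fibroblasts on the log2 scale, as it did in 45.8% of all named genes. ITGB3 and ITGA2 lay further above the fibroblasts, and ITGA5 and ITGAV further below. Of the 9, 0 passed 3-fold in both isolates in the higher direction and 0 in the lower, whereas 2.38% of all named genes were over 3-fold higher and 2.38% over 3-fold lower. At a 2-fold threshold 1 subunit was higher, ITGB3, and 1 was lower, ITGA5, against 5.8% and 4.78% of all named genes. By any amount, 5 subunits were higher in both isolates and 3 were lower, against 41.6% and 33.5% of all named genes. The median of the 9 mean log2 differences was 0.15, over a range of -1.50 to 1.20, and that of all named genes was 0.05. In bulk RNA of this kind fewer cells with a transcript and less of the transcript per cell cannot be told apart.

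Differences were tested with limma, using the 3 arrays and adjusting by Benjamini-Hochberg over all probe sets. The fit's spread is that between the 2 isolates, moderated by a prior estimated over all probe sets (0.55 prior degrees of freedom). It is applied to the lone fibroblast culture as well. No subunit was called at an adjusted p under 0.05, and neither was any probe set of the array (0% higher and 0% lower). Without adjustment 1 subunit was higher and 2 were lower at a p under 0.05, and over all probe sets 2354 were higher and 2666 lower. The methods' one-way ANOVA also called 0 probe sets of the 20503 whose isolates differ (186 higher and 208 lower without adjustment), whereas limma with a robust prior called 571 higher and 618 lower, ITGB3 among the higher. The adjusted p of the 9 subunits lay between 0.182 and 0.849 in limma. An exact permutation of the 3 arrays could not reach a p below 0.333. Where the rounded values of both isolates were identical, as for ITGB3 and ITGB6, the spread entering the test was too small.

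**Figure D1:**
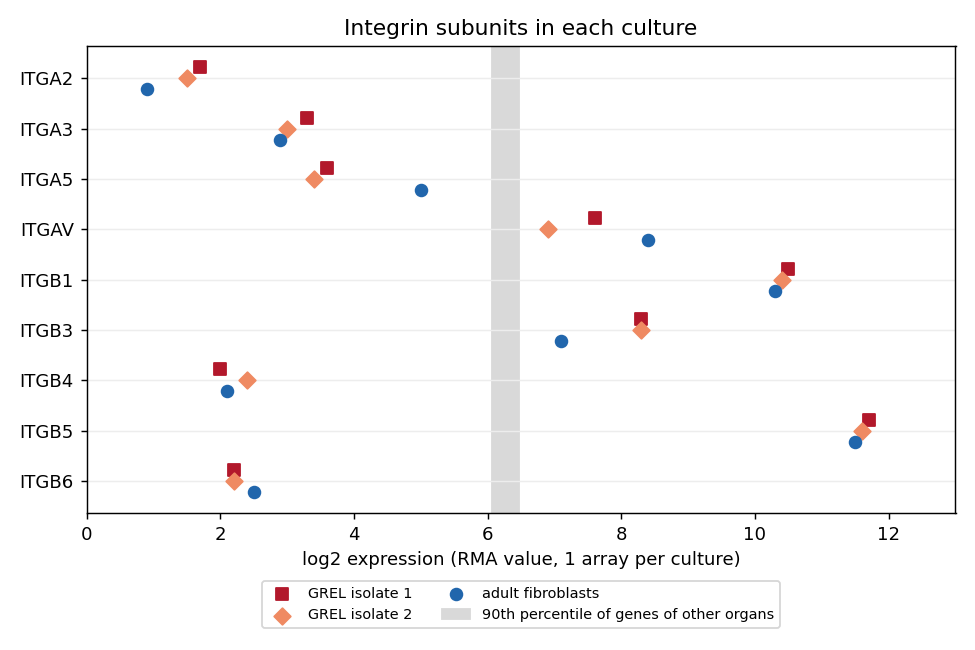
Each measured subunit's RMA value on a log2 scale (horizontal axis), with 1 array per culture, for the 9 integrin subunits in GREL isolate 1 (squares), GREL isolate 2 (diamonds) and adult fibroblasts (circles). The grey band spans the lower background levels (90th percentiles) of the 3 arrays, from 6.06 to 6.47, and ITGAV, ITGB1, ITGB3 and ITGB5 lie to its right on every array.

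ITGB1, the shared beta subunit of the collagen, laminin and fibronectin receptors, was at a log2 value of 10.5 and 10.4 in GREL isolates 1 and 2, against 10.3 in the fibroblasts. Its mean difference of 0.15 (standard error, SE, of 0.07, limma adjusted p = 0.392) is close to the step to which values were rounded. ITGB1 was read by 1 probe set, which lay above both background levels on every array. Its level was thus nearly the same on all 3 arrays.

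ITGA5, which pairs with ITGB1 to bind fibronectin, was the subunit with the most negative difference. It was at 3.6 and 3.4 in the isolates, against 5.0 in the fibroblasts, so both isolates were lower. The mean difference of -1.50 was several times the gap of 0.2 between the isolates, but it was not called (SE 0.14, limma adjusted p = 0.193). ITGA5 lay below both background levels on all 3 arrays, so the size of its difference, and with it its place past 2-fold, is uncertain. Its further probe sets, dimmer still, did not show a difference of this size: one was at 1.9 and 1.8 in the isolates, against 1.5 in the fibroblasts, and the other was at 0.9 in both isolates, against 1.1 in the fibroblasts. The lower value of ITGA5 thus rests on 1 of its 3 probe sets.

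ITGA3 and ITGA2, further alpha partners of ITGB1, were below the background levels. ITGA3, the laminin receptor subunit, was at 3.3 and 3.0 in the isolates, against 2.9 in the fibroblasts, a mean difference of 0.25 (SE 0.21, limma adjusted p = 0.566) that is smaller than the gap between the isolates of 0.3. ITGA2, the collagen receptor subunit, was at 1.7 and 1.5 in the isolates, against 0.9 in the fibroblasts, a mean difference of 0.70 (SE 0.14, limma adjusted p = 0.261). The second probe set of ITGA2 was at 0.9 in both isolates, against 1.0 in the fibroblasts. Both genes lay below the background levels on all 3 arrays, and ITGA2 was near the lowest value of the table, 0.4.

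ITGAV, the alpha subunit of the vitronectin receptors, was at 7.6 and 6.9 in GREL isolates 1 and 2, against 8.4 in the fibroblasts, which is 1.74-fold and 2.83-fold lower in the isolates. It exceeded the lower background level on every array, and the upper one in the fibroblasts only. Both isolates lay below the fibroblasts, but they were 0.7 apart, the widest gap among the probe sets that represent the 9 genes, and the mean difference of -1.15 was not called (SE 0.49, limma adjusted p = 0.392). Its second probe set behaved alike, at 5.0 and 4.0 in the isolates, against 5.7 in the fibroblasts. These values lay below both background levels on every array and the isolates were 1.0 apart, so the size of this difference is uncertain. ITGAV was the subunit for which a further probe set gave the same direction in both isolates at a similar size, with a mean difference of -1.20. The summed fibroblast markers were also lower in isolate 2 than in isolate 1, and the part of that in the result for ITGAV was not tested.

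**Figure D2:**
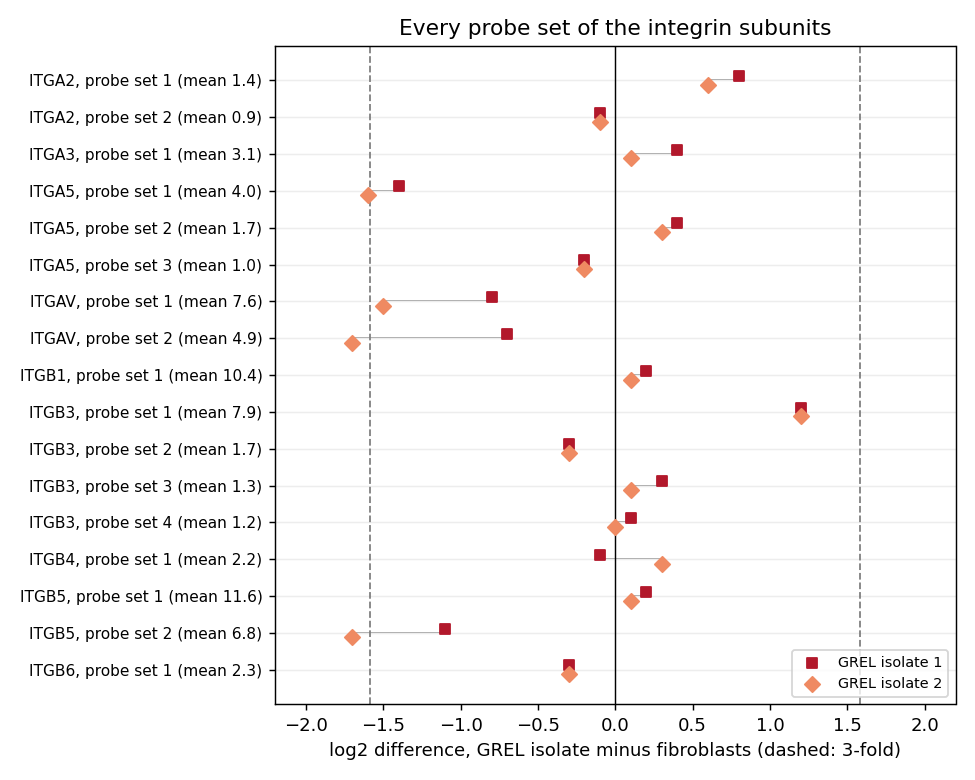
Log2 difference of GREL isolate 1 (squares) and GREL isolate 2 (diamonds) from the fibroblasts (horizontal axis) for the 17 probe sets of the 9 subunits, ordered within a gene by mean level, which stands in brackets. Dashed lines mark 3-fold. No probe set has both isolates past a dashed line, and the probe sets of ITGB5, ITGA5, ITGB3 and ITGA2 differ in direction.

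ITGB3, the beta subunit that with ITGAV forms the classical vitronectin receptor, had the largest difference in the higher direction. It was at 8.3 in both GREL isolates, against 7.1 in the fibroblasts, 2.3-fold higher in each isolate. The mean difference was 1.20 (SE 0.03, limma adjusted p = 0.182), and both isolates had the same rounded value. Among all named genes 4.73% were at least as high by the isolate nearer to the fibroblasts. ITGB3 exceeded the lower background level (the 90th percentile) on every array, and the upper one in the isolates but not in the fibroblasts. Its 3 further probe sets were between 1.2 and 1.9 on every array and had mean differences of -0.30, 0.20 and 0.05. The higher value of ITGB3 thus rests on 1 of its 4 probe sets. By their brightest probe sets, ITGB3 and its partner ITGAV differed from the fibroblasts in opposite directions, a contrast that was not tested.

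ITGB5, another beta partner of ITGAV, gave discordant readings. Its brighter probe set was at 11.7 and 11.6 in the isolates, against 11.5 in the fibroblasts, a mean difference of 0.15 (SE 0.07, limma adjusted p = 0.392). Its dimmer probe set was at 6.6 and 6.0 in the isolates, against 7.7 in the fibroblasts, which is 2.14-fold and 3.25-fold lower, a mean difference of -1.40 (SE 0.42, limma adjusted p = 0.286). The dimmer probe set lay above the 90th percentile in isolate 1 and in the fibroblasts but not in isolate 2. The brighter one lay near the upper end of the array's range, which reached 12.3. No direction is therefore given for ITGB5, although its brighter probe set stands among the 5 higher subunits counted above.

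ITGB6, the epithelial partner of ITGAV, was at 2.2 in both isolates, against 2.5 in the fibroblasts, a mean difference of -0.30 (SE 0.03, limma adjusted p = 0.184). ITGB4, the beta subunit of hemidesmosomes, was at 2.0 and 2.4 in the isolates, against 2.1 in the fibroblasts. It was the subunit whose isolates lay on both sides of the fibroblasts, with a mean difference of 0.10 (SE 0.28, limma adjusted p = 0.849). ITGB6 and ITGB4, the subunits on the list best known from epithelia, were each read by 1 probe set and lay well below the background levels in all 3 cultures.

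**Figure D3:**
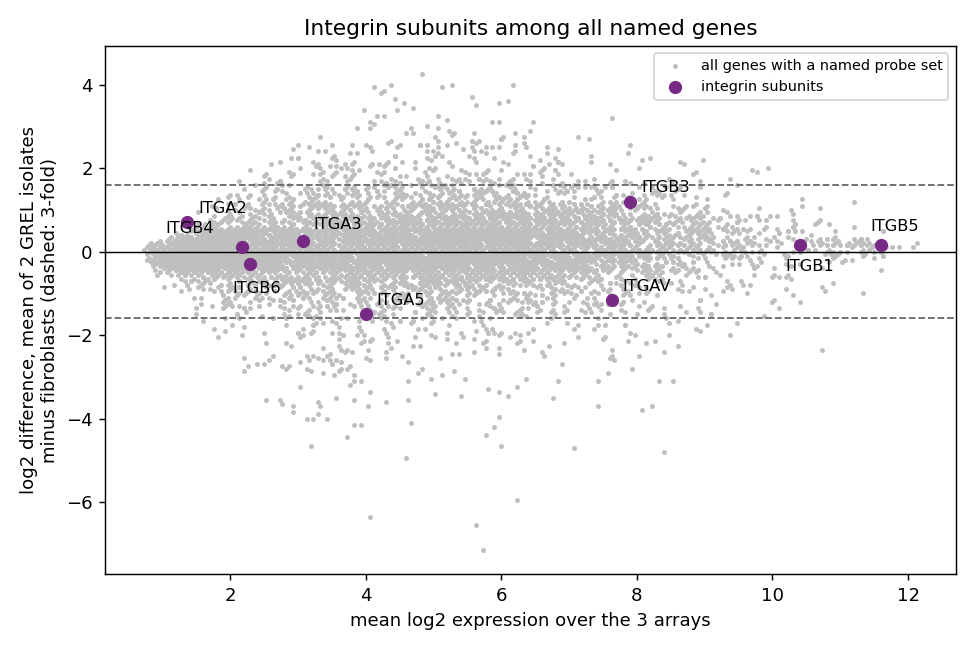
Mean of the 2 GREL isolates minus fibroblasts on the log2 scale (vertical axis) against the mean log2 expression over the 3 arrays (horizontal axis) for the 9155 named genes (grey) and the 9 integrin subunits (purple, labelled). Dashed lines mark 3-fold, and every subunit lies between them.

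The genes whose log2 values over the 3 arrays were nearest to those of ITGB3 were U2AF1, C1QBP and SLC39A6, at Euclidean distances of 0.17, 0.22 and 0.24. Nearest to ITGA5 were SLC17A9 and TCTA, at 0.10 each, and PPP1R15A, at 0.14. With 3 arrays and rounded values such likeness describes the readings only.

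Other integrin subunits, 10 of which were measured of 16 listed, held 1 gene past 3-fold, where 2.38% of all named genes passed in each direction. It was over 3-fold higher in both isolates, 0 were over 3-fold lower, and the median difference of the 10 was -0.08. The gene was ITGA7, a laminin receptor subunit of muscle, at 4.5 and 5.4 in the isolates, against 2.9 in the fibroblasts, a mean difference of 2.05 (SE 0.63, limma adjusted p = 0.294). All its values were below the 90th percentile. Its further probe sets were at 3.2 in both isolates, against 2.8 in the fibroblasts, and 2.1 in both isolates, against 2.2 in the fibroblasts. None of the 10 exceeded the lower background level in both isolates or in the fibroblasts, the leukocyte subunits ITGAL, ITGAM and ITGB2 among them.

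The matrix and cell surface proteins that integrins bind were counted in the same way. Of 32 measured ligands, 6 were over 3-fold lower in both GREL isolates and 0 were over 3-fold higher, where 2.38% of all named genes passed in each direction. By any amount 21 were lower and 5 higher, where 33.5% and 41.6% of all named genes were. The median difference of the ligands was -0.78, beside 0.05 over all named genes. Tenascin C (TNC), a matrix protein bound by ITGAV with ITGB3, was at 7.2 and 6.4 in the isolates, against 10.6 in the fibroblasts, 10.6-fold and 18.4-fold lower (limma adjusted p = 0.217). Its dimmer probe set was at 2.2 in both isolates, against 2.5 in the fibroblasts. VCAM1, a cell surface ligand of ITGA4 with ITGB1, was at 4.6 and 5.3 in the isolates, against 8.4 in the fibroblasts (limma adjusted p = 0.208), and since both isolates were below the lower background level the size of its difference is uncertain. The others over 3-fold lower were ICAM1, LAMA4, NID1 and COL6A1. ICAM1 and NID1 lay below the lower background level in both isolates, and LAMA4 on every array, so the sizes of their differences are uncertain too. The dimmer probe sets of COL6A1 and LAMA4 were not over 3-fold lower.

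Fibronectin (FN1), the ligand of ITGA5 with ITGB1, chosen for this role after its values were seen, was at 10.2 and 9.7 in the isolates, against 11.0 in the fibroblasts. Its mean difference was -1.05 (SE 0.35, limma adjusted p = 0.319), and both isolates lay below the fibroblasts. The dimmer probe set of FN1 was at 1.1 and 1.2 in the isolates, against 1.3 in the fibroblasts, and did not show a difference of this size. Vitronectin (VTN), the ligand that names the ITGAV receptors and chosen in the same way, was at 1.7 in both isolates, against 1.5 in the fibroblasts, below the background levels. The ligand list holds COL1A1, COL1A2 and COL3A1, which are also among the fibroblast markers, and the part of the cell types' other differences in its shift was not tested.

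**Figure D4:**
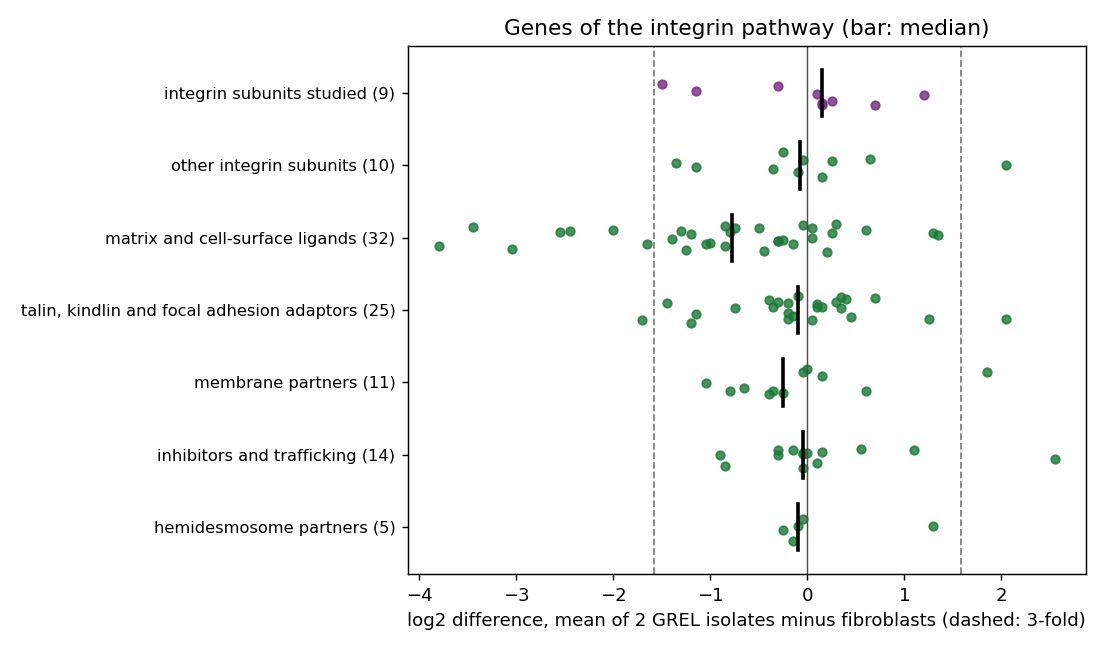
Mean of the 2 GREL isolates minus fibroblasts on the log2 scale (horizontal axis), with 1 point per measured gene in 7 lists. Numbers in brackets count the genes, and black bars mark medians, at 0.15 for the integrin subunits studied and -0.78 for the ligands, and dashed lines mark 3-fold.

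Inside the cell, 1 of 25 measured talin, kindlin and focal adhesion adaptors was over 3-fold higher in both isolates and 1 was over 3-fold lower, beside 2.38% of all named genes in each direction. Talin 1 (TLN1), which binds the beta tail and activates integrins, was at 6.5 and 6.3 in the isolates, against 8.1 in the fibroblasts, 3.03-fold and 3.48-fold lower (limma adjusted p = 0.184). Its dimmer probe set was at 3.5 and 3.1 in the isolates, against 3.7 in the fibroblasts. NEDD9, a docking protein of focal adhesions, was at 7.4 and 6.9 in the isolates, against 5.1 in the fibroblasts, with a mean difference of 2.05 (limma adjusted p = 0.233). The median difference of the list was -0.10.

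Of 11 membrane partners 1 was over 3-fold higher in both isolates and 0 were over 3-fold lower, again beside 2.38% of all named genes each way, with a median difference of -0.25. It was caveolin 1 (CAV1), a membrane scaffold protein, at 9.2 and 9.7 in the isolates, against 7.6 in the fibroblasts, and its second probe set was at 4.1 and 4.6 in the isolates, against 1.9 in the fibroblasts. Both probe sets of CAV1 were over 3-fold higher in both isolates, though not called (limma adjusted p = 0.258 for the brighter). The dimmer probe set of CAV1 lay below both background levels on every array. Of 14 inhibitors and trafficking genes 1 was over 3-fold higher and 0 were over 3-fold lower, beside the same 2.38%. It was FABP3, a fatty acid binding protein also described as an inhibitor of integrin activity, at 7.4 and 6.7 in the isolates, against 4.5 in the fibroblasts (limma adjusted p = 0.261). Of 5 hemidesmosome partners, 0 were over 3-fold apart in either direction. In limma 0 genes of these lists were called.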

How the data were processed

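RNA of 3 cultures (2 GREL isolates, 1 fibroblast culture) was measured on 1 array each. Per the paper's methods and the submitters' processing notes, the authors corrected background with RMA, applied quantile normalization and took logarithms in Partek 6.5. The deposited table holds these log2 values, rounded to steps of 0.1. Probe sets were named through the platform annotation: 13292 had 1 symbol, 86 several and 10638 none, and 112 controls were left out. The gene identifiers of all 9 measured subunits matched the current bovine gene table. No coordinates are given, since the sources used here name no build. The members and gene lists were chosen with earlier results of these data known.

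GREL cells were compared with fibroblasts using limma 3.58.1 in R 4.3.3 (lmFit, eBayes, 1 residual degree of freedom) and tested on simulated data. Tables were made in Python 3.11.15 (pandas 2.3.3, numpy 2.4.6). In 3513 probe sets the isolates are identical after rounding. All members are named, and of each list up to 2 genes per direction over 3-fold in both isolates. The labels only number the isolates, and the paper describes them as independent, from fetuses of different length. The p-values measure only the spread between these 2, which limma moderates with a prior over all probe sets, and array number limits the precision. Alternatives were an intensity trend, a robust prior, the methods' one-way ANOVA on probe sets whose isolates differ, a filter on dim probe sets, repeated quantile normalization, median centring, the mean over probe sets, other folds and background levels, leaving out an isolate and, added after the data were seen, the second-brightest probe set.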

Additional observations from a re-analysis of the deposited data

How the results depend on the processing

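With the second-brightest probe set the mean difference changed sign for ITGA2 (-0.10), ITGA5 (0.35), ITGB3 (-0.30) and ITGB5 (-1.40), and averaging a gene's probe sets gave -0.62 for ITGB5. The cause was not tested. Averaging also gave -0.45 for ITGA5 and 0.29 for ITGB3. ITGB4 lay between -0.10 and 0.30 with either isolate left out. With a robust prior limma called 1 subunit higher, ITGB3 (adjusted p = 0.0452, against 0.182 to 0.25 in the other settings run for it), and 571 probe sets higher and 618 lower over the array. At 2-fold 1 subunit was higher and 1 lower, with 531 genes higher and 438 lower over all named genes, and at 4-fold 88 and 121. Leaving out either isolate gave 0 to 1 subunits over 3-fold lower (ITGA5 without isolate 1), and 263 to 431 genes higher and 251 to 331 lower, of which 431 and 331 were without isolate 1. At the 90th percentile 4 subunits lay above background on all arrays, against 2 at the 95th. Of 63 tested values of single subunits under an alternative, 57 kept their direction and their side of the threshold. That count says little, since the intensity trend, robust prior, one-way ANOVA and filter leave a subunit's mean difference unchanged. Direction could not change there, and with no subunit called in the main fit none could lose a call. Of 18 untested values with an isolate left out 17 kept their direction. The filter kept 6 of the 9 subunits and the methods' one-way ANOVA could take 7. The isolates came from fetuses and the fibroblasts from an adult animal, so no arrays were matched and no paired analysis was possible.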
